A study of Homo sapiens with 6 samples.

Results

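NDRG1, VEGFA and 8 further genes that cells switch on when oxygen is short, and that take no part in glycolysis, were examined in cells given a kinase inhibitor. Their members were chosen as targets of the hypoxia-inducible factors (HIF) among which NDRG1 was known to be higher and VEGFA lower after treatment in these same data. All probe sets that name exactly 1 of the 10 symbols were taken. They numbered 31, for 9 of the 10 genes, out of 44988 single-symbol probe sets for 18132 genes. CA9, the tumour-associated carbonic anhydrase, is not analysed here. The AAPK to DMSO differences of the 9 genes are therefore a description and carry no p-value.

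HIF is a pair of proteins, an alpha subunit and ARNT. When oxygen is present, prolyl hydroxylases of the EGLN family mark the alpha subunit, and the VHL ubiquitin ligase then has it degraded. When oxygen is short the alpha subunit persists, enters the nucleus and binds a short core motif in enhancers and promoters. Its targets cover blood vessel growth (VEGFA, ADM), lipid handling (ANGPTL4), removal of mitochondria (BNIP3), collagen modification (P4HA1), histone demethylation (KDM3A) and feedback on HIF itself (EGLN3). In colorectal tumours VEGFA is best known as the growth factor that draws in vessels.

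The cells were labelled as HCT-116, an established human colorectal carcinoma line; the submitters describe the cells as rich in Aurora-A and PLK-1. All were kept in RPMI 1640 with 10% FBS. Of 6 Affymetrix PrimeView arrays, 3 are of DMSO-treated cells (the vehicle) and 3 of AAPK-treated cells. AAPK is named in the series title as a dual inhibitor of Aurora A and PLK-1. The treatment field reads 10 µM and 48 h for all 6 samples, and the 10 µM is taken as the dose of AAPK. No oxygen level is stated for any sample. Whether replicates were grown as separate cultures is not stated. The errors and p-values then measure only how far these arrays differ, and that spread may be technical.

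Array medians lay between 6.46 and 6.50 log2 units, and arrays of 1 group correlated at 0.9976 to 0.9983 over all probe sets. Of 6 epithelial markers, KRT18 and KRT8, the simple epithelial keratins, had DMSO means of 12.44 and 11.84, and CLDN4 had 8.80. EPCAM, the epithelial adhesion molecule, was at 3.45 on the brightest of its 3 probe sets, near the lowest value on the arrays, 2.83. CDH1, E-cadherin, was at 5.11 and KRT19 at 4.97, so 3 of the 6 markers of the labelled cell type were at low signal in both groups. KRT8 was the 1 of the 6 to pass limma's threshold (0.17 higher in AAPK, adjusted p = 0.0402), and no marker of 5 endothelial, 6 fibroblast or 4 measured blood genes passed. Of those 15 markers, the mean signal per array ran from 5.60 to 6.17 over the 3 lists in both groups. Single markers ran from a DMSO mean of 3.20 (LUM, fibroblast) to 8.47 (HBB, blood), so some read above EPCAM, CDH1 and KRT19. The part of the 15 markers in the results below was not tested.

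NDRG1, a cytoplasmic stress-response protein linked to differentiation and suppression of metastasis, had the largest positive difference of the members. On its brightest probe set, 11754337_s_at, the DMSO arrays read 8.28, 8.17 and 8.33 log2 units and the AAPK arrays 9.13, 9.25 and 9.06. The groups were separated by 0.73, far more than the range within either. The difference was 0.89 ± 0.06 (moderated SE, n = 3 per group), a 1.85-fold higher signal with AAPK. In RNA from a whole culture, a change in how many cells express a gene and a change in RNA per cell cannot be told apart.

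All 6 NDRG1 probe sets had AAPK arrays above DMSO arrays with no overlap. The largest difference, 0.98 ± 0.11, was on 11751342_a_at, where DMSO read 6.89, 7.09 and 7.33 and AAPK read 8.14, 8.24 and 7.89. The smallest was 0.46 ± 0.07 on 11753233_x_at, with 7.49, 7.64 and 7.47 against 8.10, 8.02 and 7.85. The mean over the 6 probe sets was 0.71 higher. AAPK replicate 3 was the lowest of the AAPK arrays on all 6 probe sets. It stood furthest down on the dimmest, 11753232_a_at, which read 5.53, 5.63 and 5.59 in DMSO and 6.41, 6.33 and 5.90 in AAPK. The 6 probe sets read the same RNA and in part the same transcripts, so they are not replicates of each other.

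VEGFA, the endothelial growth factor, went the other way. Its brightest probe set, 11725371_s_at, read 9.56, 9.54 and 9.63 in DMSO and 8.77, 8.82 and 8.79 in AAPK. The AAPK arrays lay within 0.04 of each other and 0.73 below the lowest DMSO array. The difference was -0.78 ± 0.04, so the signal was 1.72-fold lower with AAPK.

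The 10 VEGFA probe sets were all lower in AAPK, by very unequal amounts. Besides the brightest, 11725372_x_at and 11741964_s_at were each at -0.73 ± 0.05. The second of these read 8.71, 8.76 and 8.81 in DMSO and 8.03, 8.06 and 7.99 in AAPK. At the other end, 11763089_x_at was at -0.08 ± 0.06 and 11742212_a_at at -0.11 ± 0.05, and on both the groups overlapped. The first of these was among the brighter ones, with 8.77, 8.78 and 8.59 against 8.64, 8.56 and 8.71. The remaining 5 lay between -0.56 and -0.25, each with no overlap between the groups. The mean over all 10 was -0.44. A probe set can read more than 1 transcript, and which VEGFA isoform each reads is not given in the sources used here.

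**Figure D1:**
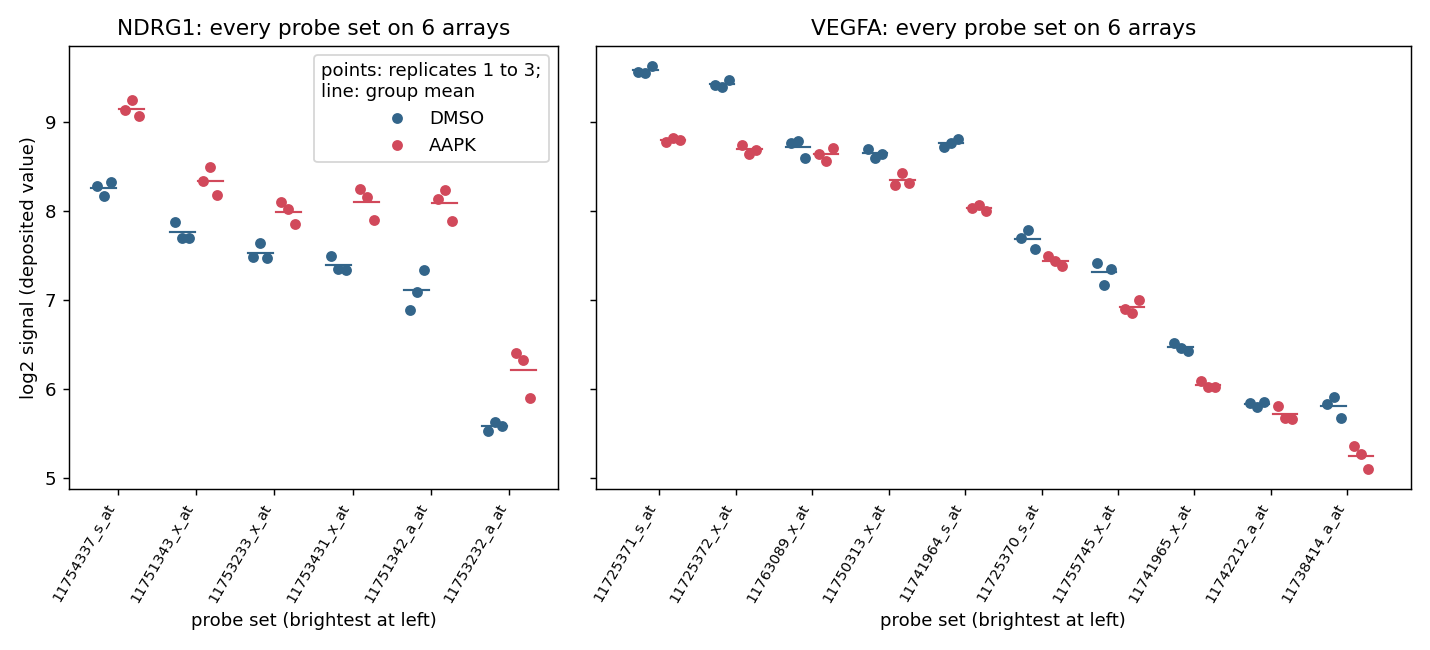
Log2 signal of each NDRG1 (left) and VEGFA (right) probe set on the 3 DMSO and 3 AAPK arrays, 1 point per array and a line at the group mean, ordered by brightness. AAPK points sit above DMSO points on all 6 NDRG1 probe sets and below them on 8 of 10 VEGFA probe sets, while the groups overlap on the other 2.

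Over the 9 measured genes, taking the brightest probe set of each, 5 were higher in AAPK without overlap (NDRG1, KDM3A, P4HA1, BNIP3 and ANKRD37), 2 were lower without overlap (VEGFA and ADM) and 2 overlapped (ANGPTL4 and EGLN3). Among all 18132 genes, 14.9% were higher and 17.1% lower without overlap. The same 5 and 2 genes passed limma's threshold of adjusted p 0.05, against a background of 8.11% of all genes higher and 7.26% lower. Since the genes were chosen with this contrast known, nothing is read from these counts. The median difference of the 9 genes was 0.22, and that of all genes -0.02. By probe set, 12 of 31 were higher and 10 lower without overlap, against 14.3% and 15.2% of all probe sets. By limma's threshold 11 were higher and 10 lower, against 7.13% and 5.82%. Of the 9 genes, 8 lay above the 25th percentile of mean signal over all genes and 7 above the median.

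To show where the HIF core motif lies, the 250 bases before the annotated start are printed for 5 members that hold a form of it. Of these, 4 were higher in AAPK and ADM was lower. The sequences are from RefSeq, build GRCh38.p14, and run 5′ to 3′ on the strand of the gene. Capitals mark the HIF core motif in its forms ACGTG and GCGTG on either strand, so that a match on the opposite strand reads CACGT or CACGC.
ANKRD37, chr4:185396591-185396840, plus strand: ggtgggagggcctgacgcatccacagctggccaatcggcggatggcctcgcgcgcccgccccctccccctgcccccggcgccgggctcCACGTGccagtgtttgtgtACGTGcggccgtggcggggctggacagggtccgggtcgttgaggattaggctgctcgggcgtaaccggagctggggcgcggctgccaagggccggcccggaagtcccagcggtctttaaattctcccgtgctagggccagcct
BNIP3, chr10:131981924-131982173, minus strand: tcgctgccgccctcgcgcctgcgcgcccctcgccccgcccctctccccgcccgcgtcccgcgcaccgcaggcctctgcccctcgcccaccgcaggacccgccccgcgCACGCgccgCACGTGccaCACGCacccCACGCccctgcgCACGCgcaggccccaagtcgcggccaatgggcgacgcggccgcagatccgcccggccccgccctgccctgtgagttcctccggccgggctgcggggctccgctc
P4HA1, chr10:73096867-73097116, minus strand: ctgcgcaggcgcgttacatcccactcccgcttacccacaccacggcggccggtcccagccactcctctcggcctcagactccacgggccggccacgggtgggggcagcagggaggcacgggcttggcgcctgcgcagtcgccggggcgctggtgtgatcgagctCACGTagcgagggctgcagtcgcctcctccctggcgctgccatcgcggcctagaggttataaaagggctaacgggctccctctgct
KDM3A, chr2:86441121-86441370, plus strand: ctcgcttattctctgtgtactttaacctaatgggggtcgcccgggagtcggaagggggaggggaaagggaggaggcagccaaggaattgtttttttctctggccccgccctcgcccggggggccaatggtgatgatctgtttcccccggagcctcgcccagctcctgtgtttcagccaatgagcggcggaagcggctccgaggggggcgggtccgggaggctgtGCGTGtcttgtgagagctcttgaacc
ADM, chr11:10304823-10305072, plus strand: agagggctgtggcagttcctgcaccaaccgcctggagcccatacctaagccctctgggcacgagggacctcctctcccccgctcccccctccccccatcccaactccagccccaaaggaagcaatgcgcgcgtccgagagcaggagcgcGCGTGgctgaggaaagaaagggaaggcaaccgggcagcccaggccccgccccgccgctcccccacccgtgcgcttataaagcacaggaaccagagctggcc

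The RefSeq promoter table held 7 of the 9 measured members, and 6 of the 7 had at least 1 form of the motif in these 250 bases. Over all 35116 windows of that length in the table, 43.2% had either form, 18.5% had ACGTG and 32.2% had GCGTG. As the members were chosen as HIF targets, nothing is read from the 6 of 7. ANKRD37 had ACGTG at 2 spots. The one further from the start, 162 to 157 bases before it, is CACGTG, which reads ACGTG on both strands and is also the E-box bound by MYC and other factors. BNIP3 had 5 spots between 143 and 100 bases before the start, of which 1 is CACGTG and 4 are GCGTG on the opposite strand. P4HA1 had 1 ACGTG, 86 to 82 bases before the start, and ANGPTL4 had 1 from 234 to 230. KDM3A, with 2 listed starts, had the same GCGTG before both, 26 to 22 bases before the first. ADM had 1 GCGTG, 101 to 97 bases before the start, and EGLN3 had neither form in this window. A match describes the letters only. The windows of NDRG1 and VEGFA were not analysed here.

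Of the other secreted members, ADM was slightly lower in AAPK and ANGPTL4 overlapped between the groups. ADM encodes adrenomedullin, a vessel-dilating peptide. Its brightest probe set read 9.13, 9.18 and 9.14 in DMSO and 8.92, 9.02 and 8.96 in AAPK, a difference of -0.18 ± 0.05. The groups did not overlap, but the gap between them was 0.11. A second ADM probe set, 11716710_a_at, was at -0.23 ± 0.05, and the third, 11753618_a_at, at -0.04 ± 0.06 with overlap. ANGPTL4, an inhibitor of lipoprotein lipase, read 6.39, 6.56 and 6.37 in DMSO and 6.58, 6.80 and 6.53 in AAPK on its 1 probe set. The difference was 0.19 ± 0.08, and AAPK replicate 3 lay below DMSO replicate 2. Without AAPK replicate 2 it was 0.11.

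EGLN3, the prolyl hydroxylase that HIF itself induces, did not separate the groups. Its brightest probe set read 5.55, 5.45 and 5.47 in DMSO and 5.67, 5.53 and 5.43 in AAPK, a difference of 0.05 ± 0.06. The other 2 were at 0.11 ± 0.07 and -0.01 ± 0.07, and the groups overlapped on all 3. EGLN3 was the 1 member under the 25th percentile of signal, and its difference was -0.01 without AAPK replicate 1.

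BNIP3, a mitochondrial outer membrane protein that starts mitophagy, read 10.01, 9.96 and 10.02 in DMSO and 10.23, 10.39 and 10.30 in AAPK on its brightest probe set. All AAPK arrays were higher, with a difference of 0.31 ± 0.05, or 1.24-fold. Its other probe set, 11760104_at, was far dimmer, read 5.86, 5.96 and 5.85 against 5.90, 5.65 and 5.84, and was at -0.09 ± 0.07. The mean of both was 0.11.

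P4HA1 and KDM3A were higher in AAPK. P4HA1 is the catalytic subunit of the collagen prolyl 4-hydroxylase. It read 7.26, 7.30 and 7.43 in DMSO and 7.58, 7.69 and 7.74 in AAPK, with a gap of 0.15 between the groups and a difference of 0.34 ± 0.06 (1.27-fold). KDM3A, which removes methyl groups from lysine 9 of histone H3, read 7.52, 7.51 and 7.60 against 7.81, 8.02 and 7.86, a difference of 0.35 ± 0.06. Its 3 probe sets were all higher without overlap. They ranged from 0.16 ± 0.06 on 11750576_a_at, where the gap was only 0.01, to 0.54 ± 0.10 on 11716573_a_at, where DMSO spread from 5.61 to 6.07.

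ANKRD37, a small ankyrin-repeat protein, read 7.14, 7.16 and 7.27 in DMSO and 7.42, 7.35 and 7.46 in AAPK. The difference was 0.22 ± 0.05, with a gap of 0.07 between the groups. Its second probe set, 11760650_a_at, lay between 3.22 and 3.51 on all 6 arrays, near the lowest signal on the array, and was at 0.06 ± 0.08. The mean of both was 0.14.

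**Figure D2:**
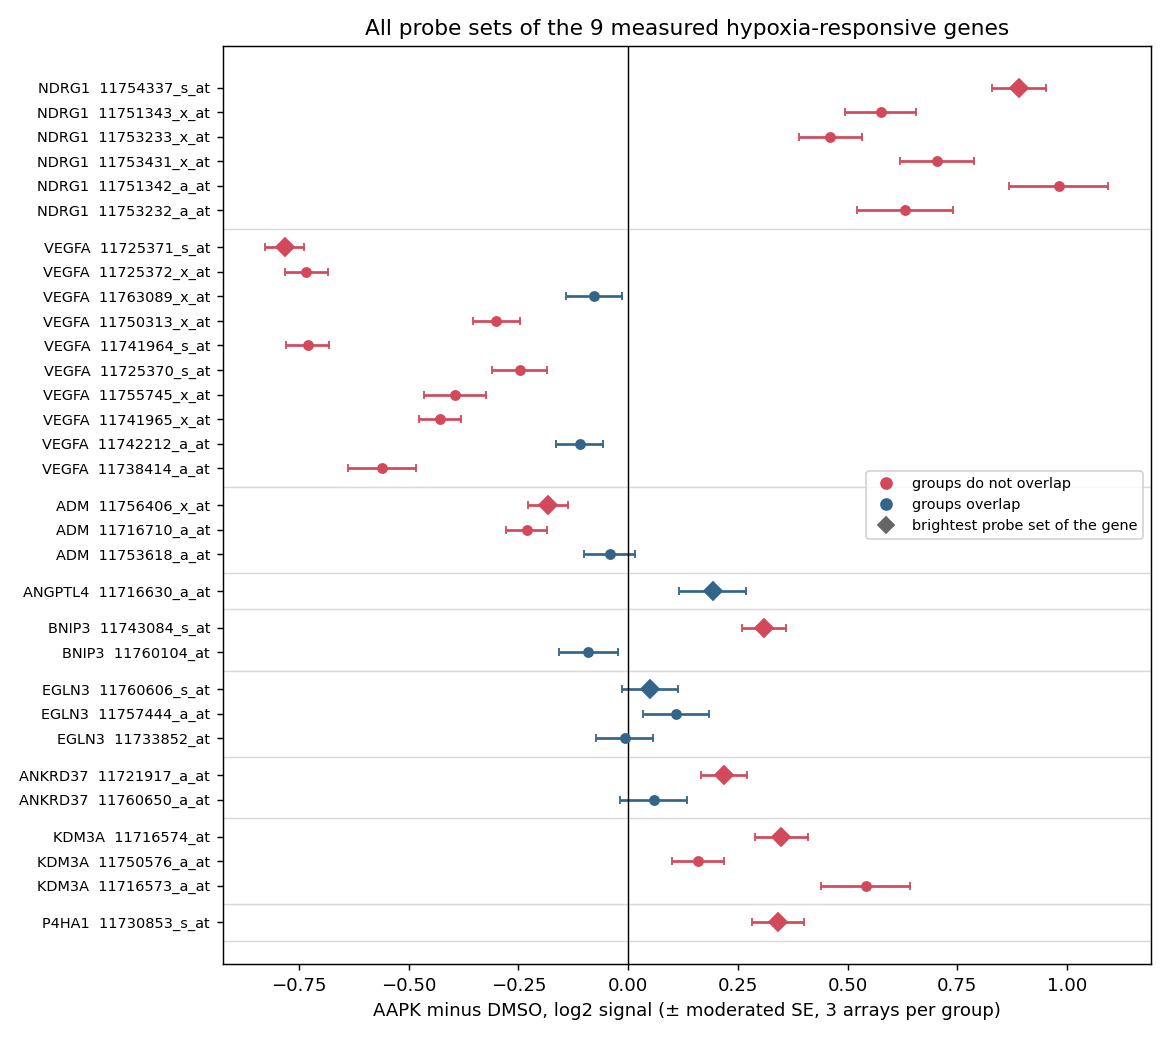
AAPK minus DMSO log2 difference of all 31 probe sets, grouped by gene, with the moderated SE (3 arrays per group); diamonds are the brightest probe set of each gene and colour shows whether the groups overlap. NDRG1, KDM3A and ANKRD37 stand to the right of 0 on every probe set, as do P4HA1 and ANGPTL4 on their only one. VEGFA and ADM stand to the left on every probe set, whereas the probe sets of BNIP3 and EGLN3 lie on both sides.

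**Figure D3:**
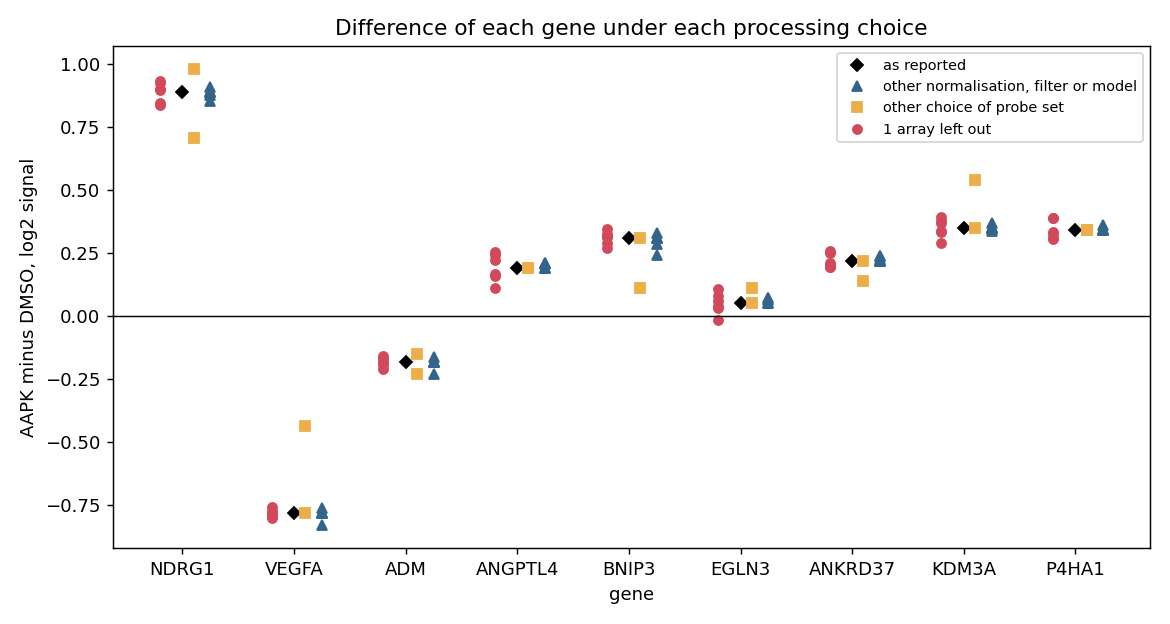
AAPK minus DMSO log2 difference of each of the 9 genes as reported and under each other processing choice, including each array left out in turn. The choice of probe set moves VEGFA from -0.78 to -0.44 and BNIP3 from 0.31 to 0.11, and EGLN3 is the gene whose points cross 0.

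Genes related to the members were examined as 5 lists, 123 genes in all, of which 114 were measured. The lists hold HIF subunits and partners, oxygen sensing and HIF degradation, other non-glycolytic targets, glycolytic targets, and paralogs, receptors and partners of members. Across the lists 17 were higher and 19 lower in AAPK by limma's test over all 18132 genes, in which 15.4% passed. That share depends on signal. It was 22.5% with genes under the 25th percentile of signal left out, and 33.5% with genes under the median left out. The lists were not matched to other genes by signal, so nothing is read from their counts.

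Among 8 HIF subunits and transcription partners, 0 were higher and 3 lower, against 8.11% and 7.26% of all genes. The counts were the same at an unadjusted p of 0.05. The median difference was -0.07. EPAS1, the HIF-2 alpha subunit, was lower in all AAPK arrays, with a difference of -0.29 ± 0.05 (limma adjusted p = 0.0034), or -0.19 for the mean of its 2 probe sets. EP300 and CREBBP, the acetyltransferases that HIF recruits, fell by 0.30 and 0.29. The 5 CREBBP probe sets ran from -0.45, on the one with the largest spread, to -0.03, and their mean was -0.20. HIF1A, the HIF-1 alpha subunit, had a difference of -0.08 ± 0.05 (adjusted p = 0.352), with 10.62, 10.57 and 10.64 against 10.46, 10.52 and 10.61. ARNT was at 0.03 ± 0.06 (adjusted p = 0.812), but at 0.21 and past the threshold on its most variable probe set. These are transcript levels, and the alpha subunits are governed mainly by protein degradation, which arrays do not read.

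Of 9 measured genes of oxygen sensing and HIF degradation, 3 were higher and 3 lower, against 8.11% and 7.26% of all genes. SIAH1, a ubiquitin ligase that degrades prolyl hydroxylases, fell most: it read 8.64, 8.60 and 8.68 in DMSO and 7.66, 7.80 and 7.90 in AAPK, -0.86 ± 0.06 (limma adjusted p = 1.27e-05). All 5 of its probe sets were lower, from -0.86 to -0.54. VHL, which recognises hydroxylated HIF alpha, fell by 0.35 ± 0.05 (adjusted p = 0.00144), and was at -0.57 on its other probe set. SIAH2 was at -0.24 and lost its call without DMSO replicate 2 or 3 or AAPK replicate 1.

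Of 4 other components of the VHL ligase, 3 passed the threshold as higher, against 8.11% of all genes. ELOC, elongin C, rose by 0.27 (0.18 for the mean of its 2 probe sets). CUL2, its cullin scaffold, rose by 0.23. ELOB, elongin B, was at 0.17, a call lost under 8 of 15 alternatives. RBX1, the RING subunit, was at 0.14 ± 0.05 and did not pass (limma adjusted p = 0.0817). CUL2, ELOB and RBX1 were named after their values were seen. EGLN1, the main oxygen sensor, read 8.34, 8.40 and 8.50 in DMSO and 8.56, 8.53 and 8.70 in AAPK, 0.18 ± 0.06. It missed the threshold (adjusted p = 0.0657) and passed it under 7 of 15 alternatives, among them the one without DMSO replicate 3. HIF1AN, the asparagine hydroxylase, was at 0.01 ± 0.04 (adjusted p = 0.931).

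Of 54 measured further non-glycolytic HIF targets, 9 rose, 10 fell and 35 did not pass, with a median difference of -0.0021. Among all genes 8.11% passed as higher and 7.26% as lower. The 4 largest changes were falls. STC2, a secreted stanniocalcin, read 8.22, 8.13 and 8.35 in DMSO and 6.96, 6.94 and 6.92 in AAPK, 2.45-fold lower (-1.29 ± 0.06, moderated SE, limma adjusted p = 8.21e-07), and its 3 probe sets ran from -1.29 to -0.66. DDIT4, a stress-induced inhibitor of mTORC1, read 11.67, 11.73 and 11.68 against 10.57, 10.62 and 10.53, 2.17-fold lower. NFIL3, a bZIP repressor, fell by 0.83 and PPP1R3C, a glycogen-targeting phosphatase subunit, by 0.61.

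The rises in this list were smaller. Chosen after their values were seen, the largest were AK4, a mitochondrial adenylate kinase, at 0.50, and TFRC, the transferrin receptor, at 0.48. Also named after their values were seen are BNIP3L, P4HA2, PLOD2, INSIG2, RAB20 and HILPDA. INSIG2 rose by 0.39. Besides the 4 largest falls, the others that passed ran from -0.33 (RAB20) to -0.16 (HILPDA, a call lost under 9 of 14 alternatives). With 9 rises and 10 falls, the rises named here do not describe the list. BNIP3L, the partner of BNIP3 in mitophagy, rose by 0.29 with all 6 of its probe sets higher (0.19 to 0.29). P4HA2, the second catalytic subunit beside P4HA1, rose by 0.37. PLOD2, a collagen lysyl hydroxylase, rose by 0.33 and had all 4 probe sets higher.

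Of 19 measured glycolytic targets, 5 rose and 1 fell, against 8.11% and 7.26% of all genes. The median difference was 0.02. HK2, a hexokinase, was at 0.37, but its other probe set was at -0.07 and the call was lost with the mean of both and without AAPK replicate 3. SLC2A1, the glucose transporter GLUT1, rose by 0.33, with probe sets from -0.09 to 0.47. LDHA, lactate dehydrogenase A, rose by 0.22 on its brightest of 4 probe sets, which ran from 0.19 to 0.24. ALDOC, an aldolase, fell by 0.22 and did not pass when its most variable probe set was taken instead.

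Paralogs, receptors and partners of the members gave 2 calls among 24 measured genes, 0 higher and 2 lower by limma (2 and 3 at an unadjusted p of 0.05). The shares over all genes were 8.11% and 7.26%. JMJD1C, a relative of KDM3A, fell by 0.38 while KDM3A was higher, and its 4 probe sets were all lower. P4HA3, the third collagen hydroxylase subunit, was at -0.20, a call lost under 7 of 13 alternatives.

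**Figure D4:**
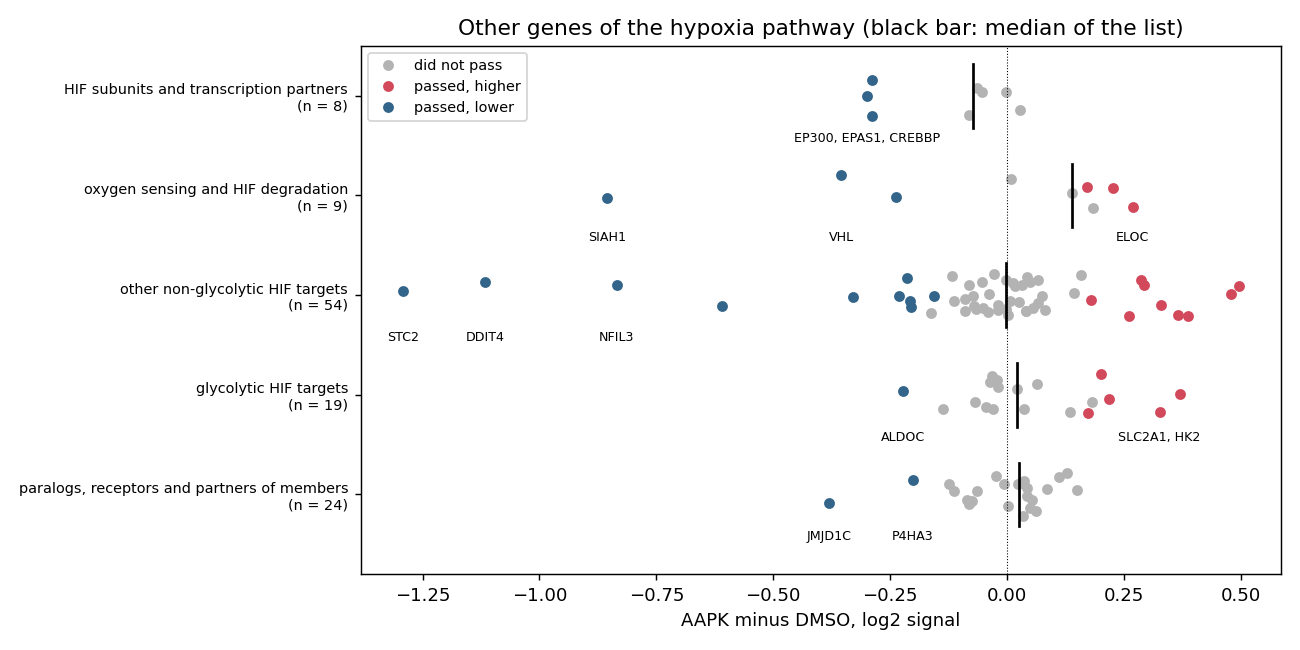
AAPK minus DMSO log2 difference of each measured gene of the 5 lists of HIF pathway genes, HIF targets and relatives of the members. Colour shows whether a gene passed limma's adjusted p of 0.05 and in which direction, and a black bar marks the list median. The falls of STC2, DDIT4 and NFIL3 reach from -1.29 to -0.83, while the largest rise is 0.50.

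By the smallest root mean square difference over the 6 arrays, after subtracting each gene's DMSO mean, the genes most like NDRG1 were CDC20, a mitotic activator of the ubiquitin ligase APC/C (0.06 log2 units), DNAJA1, an HSP40 co-chaperone (0.06), and RBIS, a ribosome biogenesis factor (0.07). Those most like VEGFA were TXNIP, a thioredoxin inhibitor (0.02), GARS1, glycyl-tRNA synthetase (0.04), and EZH2, a histone methyltransferase (0.04). TXNIP read 10.79, 10.80 and 10.81 in DMSO and 10.00, 10.03 and 10.01 in AAPK. With 2 groups of 3 arrays, likeness mostly means a difference of the same size.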

How the data were processed

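RNA extracted with Trizol was labelled with biotin by in vitro transcription, per the labels' protocols, and hybridised to PrimeView arrays. The authors deposited 1 table of log2 signal for 49395 probe sets on 6 arrays, a scale inferred from their range of 2.83 to 14.25. How background was corrected, arrays normalised and probes summarised is not given in the sources used here. Near-equal array medians show that arrays had been normalised, which removes any change shared by most genes.

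Gene names came from the platform annotation supplied with the arrays: 44988 name 1 symbol, 1832 several and 2473 none, and 102 are controls. The latter 3 kinds were left out; 0 symbols needed an update through RefSeq. Each gene was represented by the probe set with the highest mean over all 6 arrays. Levels are not compared between probe sets as amounts.

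The AAPK and DMSO arrays were compared in R 4.3.3 with the package limma 3.58.1 (lmFit, eBayes, group alone; two-sided p-values adjusted by Benjamini-Hochberg over 18132 genes) and in a second fit over 44988 probe sets. The moderated SE comes from the gene fit for brightest probe sets and from the probe set fit for others. The fit was tested on simulated arrays. Precision is limited by the 3 arrays per group. Members and lists were chosen with earlier results of these data known. Named are all members and the HIF regulators HIF1A, EPAS1, ARNT, EGLN1, HIF1AN and VHL. Added to these are the largest called changes of each of the 5 lists, up to 4 per list. The 3 genes most like NDRG1 and VEGFA each are named too. EGLN2 is not analysed here. Genes named after their values were seen are marked. Alternatives were quantile normalisation, median centring, signal filters at the 25th percentile and the median, the mean or the most variable of a gene's probe sets, an intensity trend, array weights, a replicate block and leaving out each array.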

Additional observations from a re-analysis of the deposited data

How the results depend on the processing

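Signs were kept under every alternative for 8 of the 9 members, all but EGLN3. The signal filters, the intensity trend and the replicate block leave a gene's difference unchanged, so they could not alter a sign. Nor could the choice of probe set for P4HA1 and ANGPTL4, which have 1 each. No alternative took the dimmer BNIP3 probe set, at -0.09, by itself. The number of members past the threshold ran from 5 to 8 over 15 alternatives, and from 5 to 7 when an array was left out. Without DMSO replicate 1 or 2, or AAPK replicate 1 or 3, it was 5. The share of all genes that passed ran from 10.6% (without DMSO replicate 1) to 33.5% (genes under the median of signal left out). As the members were chosen with this contrast known, nothing is read from these counts. The members' median difference was 0.14 with probe sets averaged per gene, against 0.22 as reported. With genes under the median of signal left out it was 0.31. That filter kept 7 of the 9 members and left their differences unchanged, so only the set of genes differs. The paralog list gave 1 call with quantile normalisation, 4 with an intensity trend and 1 to 2 when an array was left out. With arrays left out, ARNT ran from -0.020 (without DMSO replicate 3) to 0.060 and was at -0.01 without AAPK replicate 2, and HIF1AN ran from -0.018 (without DMSO replicate 1) to 0.027. The causes of the other shifts were not tested. Over all genes, 1921 to 3468 passed, against 2788 as reported. Replicate numbers are shared between the groups, but same-numbered arrays did not deviate together (correlations of -0.02, -0.23 and -0.05), and no array correlated best with its own number. With the replicate block 2099 genes passed, the members' median stayed at 0.22 and 8 members passed. Depth does not apply to arrays; dim probe sets, such as the second of ANKRD37, carry little information.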
